A study of Mus musculus with 21 samples.

Results

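The genes described here encode the voltage-gated calcium channels, the voltage-gated sodium channels and the pacemaker channels of the mouse. They were chosen by symbol alone, as the genes of the joint RNA count table that begin with Cacna, Cacnb or Cacng, or with Scn or Hcn followed by a digit. The rule took 44 of the 24421 genes in the table. By subunit these were 10 calcium channel pore genes, 4 alpha2-delta genes, 4 calcium channel beta genes, 8 gamma genes, 10 sodium channel pore genes, 4 sodium channel beta genes and 4 pacemaker (HCN) genes.

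In a heart muscle cell, sodium channels carry the fast upstroke of the action potential, L-type calcium channels admit the calcium that triggers contraction, and T-type calcium channels and HCN channels contribute to pacemaking. Most of the pore subunits open in response to membrane voltage, while the beta, alpha2-delta and gamma subunits set a pore's delivery to the membrane and its gating. GATA4 is a zinc finger transcription factor required for heart development in the myocardium and in the endocardium, and it binds DNA words that contain the letters GATA.

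All samples came from E12.5 mouse hearts (E gives the embryonic day), labelled as ventricular apex except the cardiomyocytes. RNA was sequenced from endothelial cells (EC) in 2 libraries of 60000 sorted Rosa26fsTrap;Tie2Cre GFP+ ventricular cells each, and from cardiomyocytes (CM) in 3 libraries, whose isolation the labels do not describe. Tie2-Cre labels endothelium and endocardium, and it is also active in blood cells and passed on to the mesenchyme that endocardium forms. For GATA4 binding, a tagged GATA4 (written GATAfb in the protocol) was biotinylated in the cells where Cre was active and pulled down with streptavidin, with Tie2-Cre in 3 libraries and Tnnt2-Cre, a cardiomyocyte driver, in 3 libraries, each from 15 to 20 pooled ventricles. Open chromatin (ATAC) was mapped in 2 libraries of 40000 sorted Tie2-Cre EC. It was also mapped in EC labelled Gata4 ko or Gata4 het, 3 libraries of 20000 sorted cells each. All embryos of the ko and het groups carried Cdh5CreER and a Rosa26mTmG reporter, and their dams had received 1 mg of tamoxifen at E9.5, so the het controls shared the Cre and the drug. The labels give the Gata4 genotype only as ko and het, without the alleles. ATAC of cardiomyocytes, with 2 samples, was not used here. As the labels are silent on litters, p-values measure the spread between these samples, which may be technical.

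The EC libraries held 27660790 and 21682362 counted reads, and the CM libraries 42948614 to 48393473. The channel genes took 0.00969% and 0.0105% of the reads in EC, against 0.0669% to 0.0728% in CM. The labelled cell types were checked on marker lists. All 12 endothelial markers were higher in EC, and their CM level was at the median 15.6% of the EC level. All 12 cardiomyocyte markers were lower in EC, and their EC level was at the median 0.912% of the CM level. Neuronal and Schwann cell markers summed to 32.6 and 28.1 CPM (the usual depth-normalised count, here with TMM-scaled library sizes) in EC, against 14.5 to 15.6 CPM in CM, with 5 of 9 tested markers higher and 2 lower in EC. Under the DESeq2, unfiltered, 2-fold and replicate block alternatives, and without EC replicate 1, CM replicate 1 or CM replicate 2, 3 were higher. Of the 12 markers listed, 2 were at 0 in both EC libraries, Foxd3 among them. Epicardial, fibroblast and mural markers had 5 of 12 higher and 6 lower in EC. Blood markers had 6 of 9 tested higher and 2 lower in EC, and their summed level was 28.0 and 26.8 CPM in EC, against 1258 to 3091 CPM in CM, where the embryonic globin gene Hbb-y alone had 1213 to 3024 CPM.

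The DNA just upstream of the start is shown for the 4 members whose RefSeq promoter window overlapped a classed GATA4 region. The classes are Tie2-Cre-selective, Tnnt2-Cre-selective and shared, as defined below. The remaining window shown is an inner start of Cacna1c, with an open chromatin region seen in all het libraries and no ko library. Regions open in both genotypes lay on either side of that region. Each is the 250 bases before the start, read 5′ to 3′ along the gene's strand, from RefSeq (GRCm38.p6). Capitals mark GATA words, which are the letters GATA with A or T before them and A or G after them, on either strand. The words in Cacna1c and Scn7a are printed as read on the other strand.
Cacna1c, outermost start, chr6:119196410-119196659, minus strand: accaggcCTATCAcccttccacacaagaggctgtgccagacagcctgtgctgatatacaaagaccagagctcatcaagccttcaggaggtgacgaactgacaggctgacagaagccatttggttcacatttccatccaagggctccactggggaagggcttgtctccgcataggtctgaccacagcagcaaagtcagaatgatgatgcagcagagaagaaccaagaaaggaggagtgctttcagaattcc
Cacna1c, inner start, chr6:119108496-119108745, minus strand: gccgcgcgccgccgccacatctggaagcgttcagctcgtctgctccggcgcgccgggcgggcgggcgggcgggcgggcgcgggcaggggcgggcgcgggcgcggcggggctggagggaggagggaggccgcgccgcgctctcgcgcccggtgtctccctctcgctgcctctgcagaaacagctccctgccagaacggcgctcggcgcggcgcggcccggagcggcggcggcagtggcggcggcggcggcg
Cacna1d, chr14:30491157-30491406, minus strand: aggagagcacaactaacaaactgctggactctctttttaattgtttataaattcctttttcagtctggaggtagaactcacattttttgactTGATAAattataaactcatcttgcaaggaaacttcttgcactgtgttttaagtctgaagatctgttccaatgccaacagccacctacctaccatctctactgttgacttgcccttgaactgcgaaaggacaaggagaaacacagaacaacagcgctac
Cacna2d1, chr5:15934441-15934690, plus strand: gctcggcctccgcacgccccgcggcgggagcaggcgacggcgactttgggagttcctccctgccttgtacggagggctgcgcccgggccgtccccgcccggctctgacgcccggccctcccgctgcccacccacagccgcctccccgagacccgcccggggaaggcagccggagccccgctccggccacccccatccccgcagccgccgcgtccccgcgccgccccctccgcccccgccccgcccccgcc
Scn7a, chr2:66784911-66785160, minus strand: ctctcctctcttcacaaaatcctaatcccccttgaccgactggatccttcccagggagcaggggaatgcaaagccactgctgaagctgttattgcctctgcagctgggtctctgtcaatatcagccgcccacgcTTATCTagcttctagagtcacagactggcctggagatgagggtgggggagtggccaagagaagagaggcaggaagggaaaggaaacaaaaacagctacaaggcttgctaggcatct

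The windows differ in base composition. The Cacna2d1 window and the inner Cacna1c window are 82.4% and 82.8% G or C and hold no GATA word, while the Cacna1d window is 39.6% G or C. The word of the outermost Cacna1c window starts 243 bases before the start and lies inside a GATA4 region, as does the Scn7a word at 116 bases before the start. The Cacna1d word, 158 bases before the start, lies outside the GATA4 region, which covers 59 of the 250 bases. RefSeq windows of 300 bases were found for 32 of the 44 members, 1 of them under an older symbol, and came to 43 windows. A GATA word was present in 7 of the 43 windows (16.3%), against 29.8% of all 32851 windows, and the median G and C content was 59.7%, against 52.7% over all windows. The MEF2 words CTAAAAATA and CTATTTATA, the T-box word AGGTGTGA and the partial REST words TTCAGCACC and GGACAGCGC, searched on both strands, were in 0 of the 43 windows, and MEF2, T-box and REST words were in 0.947%, 1.28% and 0.761% of all windows.

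In RNA, 34 of the 44 members had enough reads to be tested and 10 did not. Of those tested, 7 were higher and 17 lower in EC than in CM by edgeR's quasi-likelihood test with Benjamini-Hochberg adjustment over all 14851 genes tested, and 10 were not called. Of all genes tested, 77.8% were called, 37.5% as higher and 40.2% as lower in EC, so that a call as such sets no gene apart. The median log2 fold change of EC over CM was -1.05 over the 34 tested members and -0.06 over all genes tested. The EC and CM libraries did not overlap for any of the 7 higher and 17 lower members, nor for 26 (76.5%) of the 34 tested members in all, against 85.3% of all genes tested, so that a lack of overlap sets none of them apart either. With 1 library left out at a time 7 to 8 were higher and 15 to 18 lower. In bulk RNA, fewer cells of a type and less RNA per cell cannot be told apart.

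**Figure D1:**
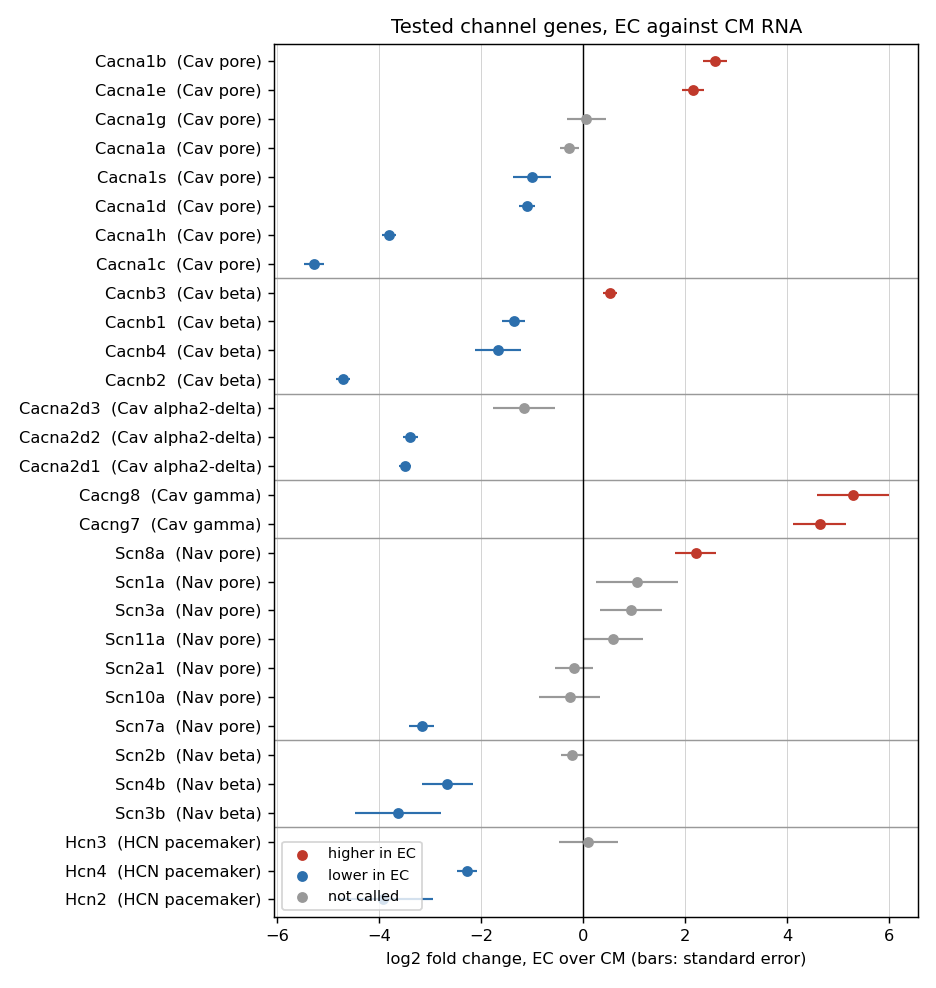
Log2 fold change of EC over CM with its standard error (edgeR) for the individually reported tested channel genes, grouped by subunit. Red points were called higher in EC, blue points lower in EC and grey points were not called. Cacna1c and Cacnb2 lie far to the left at -5.28 and -4.71. Cacng6 is not drawn because both EC libraries held 0 counts, and Hcn2, Scn3b and Cacng8 rest on 1 to 3 counts in the lower group.

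Among the calcium channel pore genes, 4 were lower and 2 higher in EC of 8 tested. Cacna1c, the main L-type pore gene of the working heart, lies on the minus strand at chr6:118587240-119196409 (mm10). It had 3.37 and 5.79 CPM in EC, against 161, 165 and 198 CPM in CM. All 3 CM libraries were far above both EC libraries, and the log2 fold change was -5.28 ± 0.19 (SE; edgeR adjusted p = 1.52e-09). Cacna1d, the other L-type pore gene of the heart, which is used in pacemaker cells, had 7.44 and 8.33 CPM in EC, against 14.7, 15.8 and 19.9 CPM in CM. The groups did not overlap but lay much closer, with a log2 fold change of -1.09 ± 0.16 (edgeR adjusted p = 8.65e-05).

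The T-type pore genes did not move together. Cacna1h had 7.12 and 5.02 CPM in EC, against 82.6, 81.4 and 92.8 CPM in CM. Its log2 fold change was -3.80 ± 0.14 (edgeR adjusted p = 1.67e-09), with no overlap between groups. Cacna1g, the second T-type pore gene, had 4.29 and 2.08 CPM in EC, against 2.68, 1.98 and 4.60 CPM in CM. The libraries of both groups were mixed in order, and the log2 fold change of 0.07 ± 0.38 was not called (edgeR adjusted p = 0.882). Cacna1i, the third T-type gene, had 0 counts in EC and at most 4 counts in a CM library, and was not tested.

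The pore genes best known from nerve terminals included the members that were higher in EC. Cacna1b, the N-type pore gene, had 7.41 and 5.75 CPM in EC, against 1.14, 1.25 and 0.897 CPM in CM, a log2 fold change of 2.59 ± 0.23 (edgeR adjusted p = 1.92e-06). Cacna1e, the R-type pore gene, had 5.85 and 5.57 CPM in EC, against 1.42, 1.18 and 1.26 CPM in CM, a log2 fold change of 2.15 ± 0.21 (edgeR adjusted p = 3.90e-06). Both EC libraries lay above all CM libraries for both genes. Cacna1a, the P/Q-type pore gene, had 3.58 and 3.44 CPM in EC, against 4.16, 4.23 and 4.31 CPM in CM. Its groups did not overlap either, but the difference of -0.27 ± 0.18 on the log2 scale was not called (edgeR adjusted p = 0.199). Cacna1s, the pore gene of skeletal muscle, was lower in EC, at 0.602 and 0.498 CPM, against 0.988 to 1.32 CPM in CM, with an adjusted p of 0.0315 by edgeR. This call was lost with DESeq2 (adjusted p = 0.0785), with the replicate number as a block (edgeR adjusted p = 0.218), and without EC replicate 2 or any 1 of the 3 CM libraries (edgeR adjusted p between 0.0609 and 0.104). Cacna1f, known from photoreceptors, had 1 read in 1 EC library and 0 in the other libraries.

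The CPM values compare a gene with itself across libraries. To compare genes within a cell type, counts were also divided by exon length (RPKM, the CPM divided by the exon length in kilobases). On that scale the 10 pore genes summed to 3.93 RPKM in EC and 25.3 RPKM in CM. Cacna1c made up 8.04% ± 3.67 of the EC sum (SD over 2 libraries), against 46.6% ± 0.774 of the CM sum (SD, n = 3), and Cacna1h 18.6% ± 2.92 against 41.2% ± 1.28. The EC sum was spread over more genes, with Cacna1d at 21.6%, Cacna1b at 17.0%, Cacna1e at 11.5% and Cacna1a at 11.3%, against 7.06%, 0.451%, 0.402% and 2.12% of the CM sum. These shares are a description with no test.

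The calcium channel beta genes, whose products bind the pore inside the cell and bring it to the membrane, had 1 member higher and 3 lower in EC of 4 tested. Cacnb2, the main beta gene of the heart, had 3.47 and 2.94 CPM in EC, against 77.8, 81.9 and 94.3 CPM in CM. Its log2 fold change was -4.71 ± 0.14 (edgeR adjusted p = 3.02e-10). Cacnb3 had 10.6 and 11.1 CPM in EC, against 7.97, 7.91 and 6.69 CPM in CM. Both EC libraries were above all CM libraries, though the log2 fold change was only 0.53 ± 0.14 (edgeR adjusted p = 5.59e-03). Cacnb1, the beta gene of skeletal muscle, had 1.63 and 1.90 CPM in EC, against 3.89, 4.63 and 5.03 CPM in CM, a log2 fold change of -1.36 ± 0.23 (edgeR adjusted p = 2.58e-04). Cacnb4, best known from brain, had 0.532 and 0.181 CPM in EC, against 1.27, 1.04 and 1.26 CPM in CM, a log2 fold change of -1.67 ± 0.46 (edgeR adjusted p = 6.29e-03). Per length, Cacnb3 was 74.7% ± 1.69 of the summed beta level in EC (SD over 2 libraries) and 11.03% ± 1.86 in CM (SD over 3 libraries), while Cacnb2 was 15.0% ± 1.97 in EC and 83.2% ± 1.74 in CM. The leading beta gene thus differed between the cell types in each library.

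**Figure D2:**
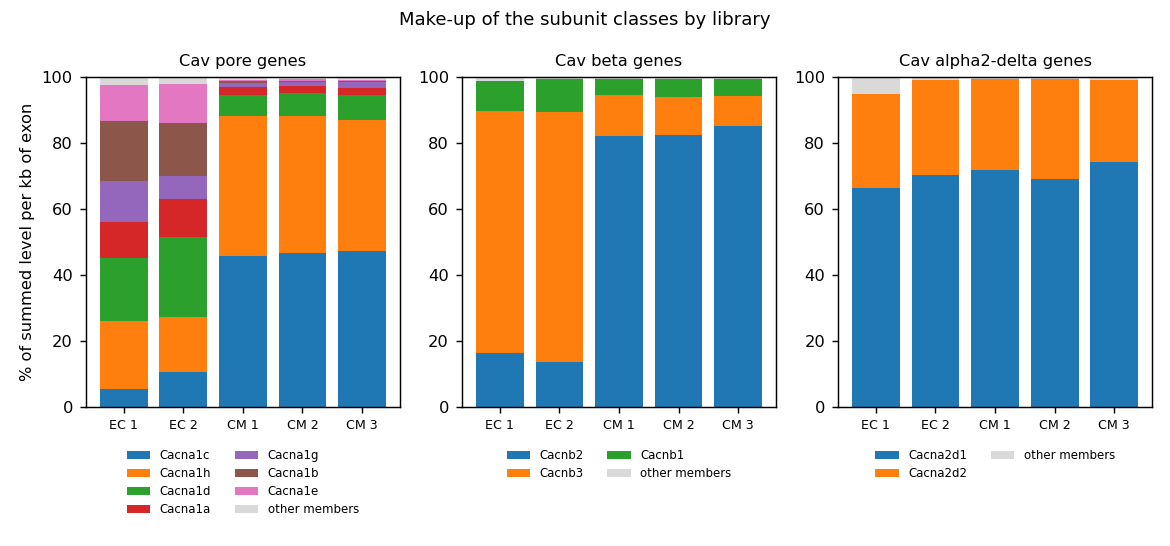
Share of each gene in the summed level per kilobase of exon of its subunit class, in the 2 EC libraries at the left and the 3 CM libraries at the right of each panel. Genes with a mean share under 8% in both groups are pooled in grey. Cacnb3 is the largest part of the beta class in both EC libraries and Cacnb2 in the 3 CM libraries.

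The alpha2-delta genes encode an extracellular subunit that raises the number of channels at the membrane. Cacna2d1, the form abundant in striated muscle, had 12.51 and 16.4 CPM in EC, against 160, 160 and 167 CPM in CM, a log2 fold change of -3.50 ± 0.12 (edgeR adjusted p = 7.21e-10). Cacna2d2 had 3.97 and 4.98 CPM in EC, against 45.7, 52.1 and 41.4 CPM in CM, a log2 fold change of -3.38 ± 0.15 (edgeR adjusted p = 6.03e-09). No EC library came near a CM library for either gene. Their proportions overlapped between EC and CM libraries, with Cacna2d1 at 68.4% ± 2.74 of the summed alpha2-delta level per length in EC and 71.7% ± 2.65 in CM. Cacna2d3 was tested and not called, at 0.461 and 0.0905 CPM in EC, against 0.458 to 0.853 CPM in CM, and was called lower without EC replicate 1 (edgeR adjusted p = 0.015). Cacna2d4 had at most 1 count in any library.

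The gamma genes encode small membrane proteins, of which Cacng1 and Cacng6 accompany muscle calcium channels and Cacng2, Cacng3, Cacng4, Cacng5, Cacng7 and Cacng8 are best known as partners of glutamate receptors in neurons. Cacng6 had 0 counts in both EC libraries, against 87, 83 and 76 counts in CM, which is at least 30.5-fold lower in EC with 3 counts over the EC group taken as the floor (edgeR adjusted p = 7.38e-06). Cacng7 ran the other way, with 1.31 and 1.81 CPM in EC, against 0.0416, 0.0941 and 0.0449 CPM in CM, a log2 fold change of 4.63 ± 0.51 (edgeR adjusted p = 9.72e-06). Cacng8 had 21 and 28 counts in EC, against 2, 0 and 1 counts in CM, a ratio of 43.9 with an exact 95% interval of 14.2 to 220, which covers counting error only (edgeR adjusted p = 4.47e-05). These 3 genes lie on chromosome 7 in the order Cacng7, Cacng8 and Cacng6, and the direction of the difference changes along it. Cacng4 differed between the EC libraries, with 30 counts in replicate 1 and 1 in replicate 2, and like Cacng1, Cacng2, Cacng3 and Cacng5 it was not tested. Cacng1 had 0 counts in all 5 libraries.

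Among the sodium channel pore genes, Scn7a, a sodium channel relative that senses sodium rather than voltage, had 0.709 and 0.679 CPM in EC, against 6.93, 5.93 and 5.83 CPM in CM, a log2 fold change of -3.16 ± 0.24 (edgeR adjusted p = 4.88e-07). Scn8a, a pore gene of neurons, had 1.63 and 1.99 CPM in EC, against 0.229, 0.518 and 0.426 CPM in CM, a log2 fold change of 2.21 ± 0.40 (edgeR adjusted p = 4.31e-04).

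Several sodium pore genes were low in both cell types. Scn2a1 had 0.851 and 1.90 CPM in EC, against 1.75, 1.48 and 1.32 CPM in CM, and was not called (edgeR adjusted p = 0.678). Scn1a, Scn3a, Scn10a and Scn11a were tested and not called, with no library above 0.996 CPM. Leaving out EC replicate 1 called Scn3a higher (edgeR adjusted p = 0.0238), and leaving out EC replicate 2 called Scn10a lower (edgeR adjusted p = 0.0444). Scn4a and Scn9a had too few reads.

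The sodium channel beta genes encode adhesion proteins that also tune the pore. Scn4b had 0.106 and 0.588 CPM in EC, against 2.10, 2.24 and 1.86 CPM in CM, a log2 fold change of -2.66 ± 0.50 (edgeR adjusted p = 5.51e-04). The EC libraries differed from each other for Scn4b, and both were below all CM libraries. Scn3b had 2 and 0 counts in EC, against 33, 18 and 21 counts in CM, so that CM was higher by a ratio of 13.4 with an exact 95% interval of 3.58 to 113 (edgeR adjusted p = 2.31e-03). Scn2b had 2.94 and 4.16 CPM in EC, against 3.95, 4.52 and 3.86 CPM in CM, and was not called (edgeR adjusted p = 0.364).

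Of the pacemaker genes, Hcn4, the HCN gene of the sinus node and of the embryonic heart tube, had 1.74 and 2.17 CPM in EC, against 8.43, 9.11 and 10.7 CPM in CM, a log2 fold change of -2.27 ± 0.20 (edgeR adjusted p = 1.61e-06). All CM libraries were above both EC libraries. Hcn2 had 1 and 0 counts in EC, against 19, 11 and 17 counts in CM, a ratio of CM over EC of 17.5 with an exact 95% interval of 2.99 to 706 (edgeR adjusted p = 3.56e-03). Without CM replicate 1 or CM replicate 3, Hcn2 had too few reads to be tested. Hcn3 had 0.213 and 0.770 CPM in EC, against 0.312, 0.494 and 0.516 CPM in CM. Its CM libraries lay between the 2 EC libraries, and it was not called (edgeR adjusted p = 0.879). Hcn4 made up 68.6% ± 8.24 of the HCN level per length in EC and 84.9% ± 0.438 in CM. Of 10 tested sinus node and conduction markers, 4 were higher and 4 lower in EC, with Tbx3 at 17.2 and 20.0 CPM in EC, against 4.43 to 6.19 CPM in CM, and Tbx18 at 19.6 and 14.6 CPM in EC, against 114 to 123 CPM in CM.

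**Figure D3:**
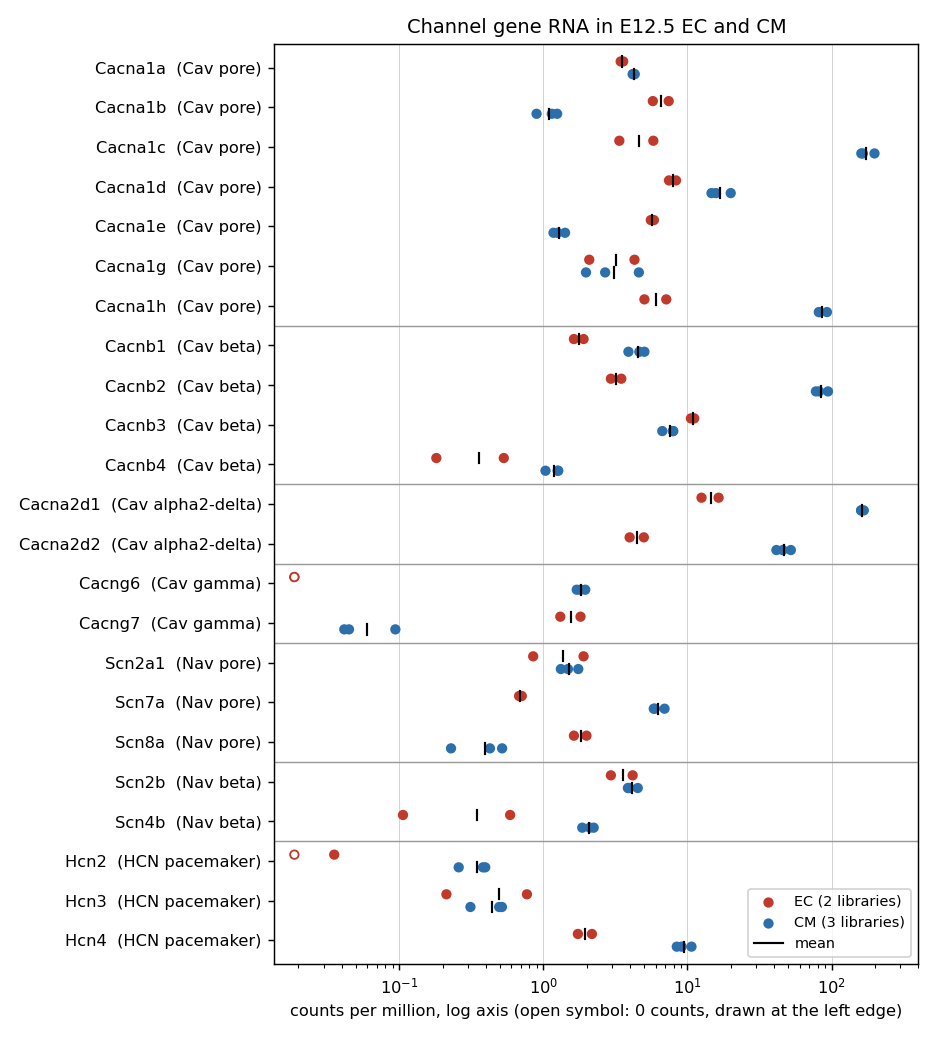
CPM on a log axis for individually reported members that met a fixed level rule, and the HCN genes among them, in each EC library (red, upper row of each gene) and each CM library (blue, lower row), with black bars for group means. Cacna1c, Cacna1h, Cacnb2, Cacna2d1 and Cacna2d2 have all 3 CM libraries at 41.4 CPM or above, and both EC libraries at 16.4 CPM or below. Open symbols mark libraries with 0 counts.

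Among the calcium channel genes ordered per length, the CM libraries were led by Cacna2d1 (21.7 RPKM), Cacnb2 (19.0), Cacna1c (11.8), Cacna1h (10.4) and Cacna2d2 (8.37). Cacna1c was above Cacna1h in each of the 3 CM libraries, although the ranges of the 2 genes overlapped. In EC the order by mean was Cacnb3 (3.60 RPKM), Cacna2d1 (1.93), Cacng7 (1.89), Cacna1d (0.843) and Cacna2d2 (0.807). Cacna2d1 was above Cacng7 in both EC libraries, by little in replicate 2. The places of Cacna1d and Cacna2d2 were not stable, and these 2 genes changed order between the libraries. Cacng4 (1.08) and Cacna1h (0.866) lay above both in EC replicate 1, and Cacng8 (0.918) in EC replicate 2. All 44 members summed to 22.6 RPKM in EC and 96.7 RPKM in CM.

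Both cell preparations held RNA of the other cell type's markers, and the values belong beside these levels. The EC level of the called lower members reached up to 49.5% of the CM level (Cacna1s), with Cacna1c at 2.63%, Cacnb2 at 3.79% and Cacna1h at 7.10%, against the median of 0.912% for cardiomyocyte markers. The CM level of the called higher members ran between 2.12% (Cacng8) and 69.3% (Cacnb3) of the EC level, with Cacng7 at 3.86%, Cacna1b at 16.7%, Scn8a at 21.6% and Cacna1e at 22.5%, against the median of 15.6% for endothelial markers. Single markers spread around these medians. Cardiomyocyte markers ran from Ttn (mean 29.1 CPM in EC, 27456 in CM) to Actn2 (16.8 and 782). Endothelial markers ran from Eng (mean 34.6 CPM in CM, 621 in EC) to Icam2 (33.7 and 99.6). Neuronal and Schwann cell markers moved with Cacna1b, Cacna1e, Scn8a, Cacng7 and Cacng8. Tubb3 was at 12.7 and 11.95 CPM in EC, against 0.354 to 0.471 CPM in CM, and Sox10 at 1.42 and 0.815 CPM in EC, against 0 to 0.0235 CPM in CM. Elavl3 went the other way, at 0.213 and 0.272 CPM in EC, against 1.86 to 2.13 CPM in CM. The part of these cells in the channel gene levels was not tested.

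Other genes of electrical and calcium signalling were counted from lists. Of 30 tested channel partners and regulators, 1 was higher and 21 were lower in EC, and 2 were higher without EC replicate 2, CM replicate 1 or CM replicate 3. The gene called higher with all libraries was Rem1, a small GTPase that inhibits calcium channels, at 7.58 and 7.15 CPM in EC, against 2.42 to 2.92 CPM in CM. Popdc2, a cyclic AMP binding membrane protein, was at 5.32 and 4.71 CPM in EC, against 246 to 271 CPM in CM. Of 21 tested sarcoplasmic reticulum and exchanger genes, 5 were higher and 13 lower in EC. Ryr2, the calcium release channel of the heart, was at 9.43 and 10.6 CPM in EC, against 946 to 1074 CPM in CM, while Atp2b4, a plasma membrane calcium pump, was at 350.0 and 349.6 CPM in EC, against 108 to 122 CPM in CM. The store-operated, TRP, Piezo and IP3 receptor genes had 15 of 23 tested members higher and 6 lower in EC. Piezo1, a channel opened by membrane stretch and flow, was at 323 and 315 CPM in EC, against 78.6 to 87.9 CPM in CM, and Tpcn1, an endolysosomal cation channel, at 91.9 and 82.5 CPM, against 10.7 to 13.3 CPM. Trpm7, a channel with a kinase domain, was lower in EC at 130 and 132 CPM, against 279 to 280 CPM in CM. Median log2 fold changes were -2.08, -2.51 and 0.81 in these 3 lists, beside -0.06 over all genes tested.

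GATA4 binding was described by merging the peaks of the 6 lists into regions. Regions with peaks in 2 or 3 Tie2-Cre libraries and no Tnnt2-Cre library were called Tie2-Cre-selective, the converse Tnnt2-Cre-selective, and those with 2 or 3 of each lineage shared. A region was given to a member if it overlapped the gene body or lay within 50 kb of the start. The channel genes held 207 such regions, in 38 of 44 members. Of these, 14 (6.76%) were Tie2-Cre-selective, 62 (30%) Tnnt2-Cre-selective and 24 (11.6%) shared, and 107 met no class. Over all 49798 regions the classes held 12.2%, 18.2% and 13.1%.

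The counts differ with the width of the genes. The median member was 96.3 kb long, against 14.4 kb over all genes placed. Per megabase of window, the channel genes held 1.62 Tie2-Cre-selective, 7.18 Tnnt2-Cre-selective and 2.78 shared regions, and all genes 2.80, 4.57 and 3.41. By gene, 9 members (20.5%) had a Tie2-Cre-selective region, 22 (50%) a Tnnt2-Cre-selective region and 14 (31.8%) a shared region, against 24.7%, 35.1% and 36.9% of all genes.

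Across libraries, peaks at channel genes were 0.300%, 0.366% and 0.347% of the Tie2-Cre lists and 0.4997%, 0.472% and 0.483% of the Tnnt2-Cre lists. All 3 Tie2-Cre libraries were lower than all 3 Tnnt2-Cre libraries. The mean share was 0.338% ± 0.034 in Tie2-Cre and 0.485% ± 0.014 in Tnnt2-Cre libraries (SD, n = 3 each), a difference of -0.147 percentage points. An exact two-sided permutation test over libraries gave p = 0.1, which is the smallest value 3 against 3 can give, so the design cannot pass a threshold of 0.05. The lists differed in length, with 17682, 2734 and 25936 peaks in Tie2-Cre and 22814, 3603 and 30447 peaks in Tnnt2-Cre replicates 1 to 3. With every list reduced to its 2734 strongest peaks, the shares were 0.366% in each Tie2-Cre library and 0.549% to 0.622% in the Tnnt2-Cre libraries. The classes rest on few libraries, since a peak in all 3 libraries of the lineage was found for only 5 of 14 regions in the Tie2-Cre-selective class and for 8 of 62 in the Tnnt2-Cre-selective class. Where 1 library is left out, so that 1 of the 2 others suffices, the Tie2-Cre-selective count is 42 without Tie2-Cre replicate 1 and 47 without replicate 2, and the Tnnt2-Cre-selective count is 101 without Tnnt2-Cre replicate 1 and 111 without replicate 2. Shared regions then reach 38 without Tie2-Cre replicate 2.

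**Figure D4:**
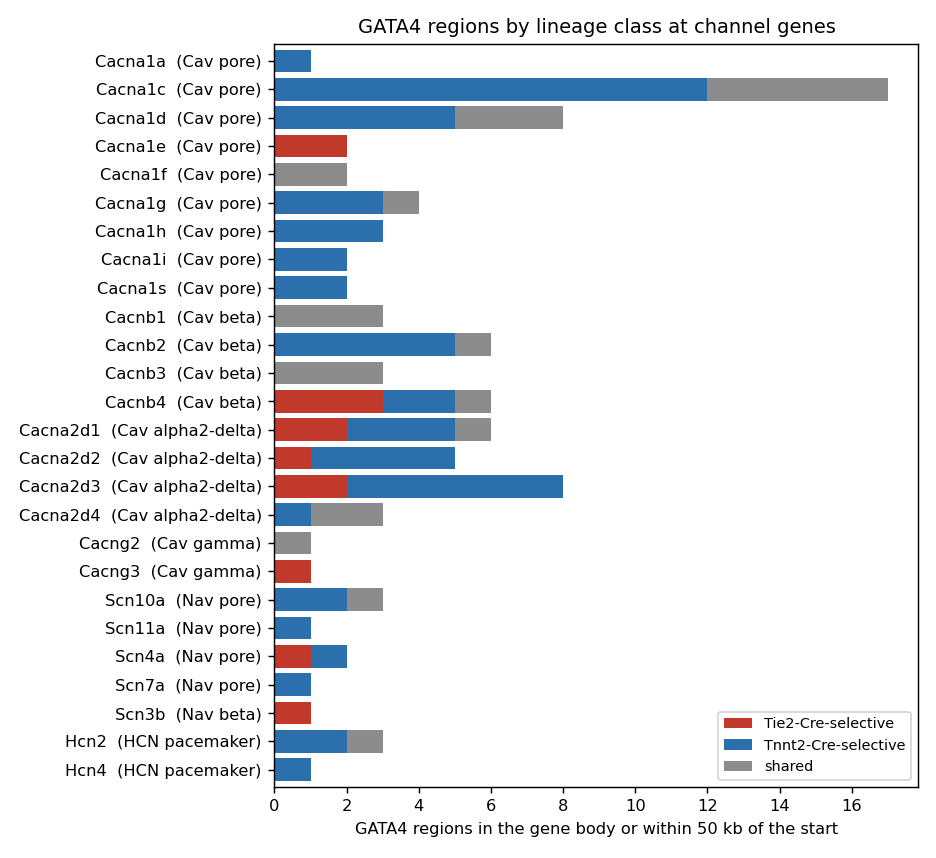
Number of GATA4 regions of each class in the gene body or within 50 kb of the start, for the individually reported members with at least 1 classed region. Cacna1c has the longest bar, with 12 Tnnt2-Cre-selective and 5 shared regions and no Tie2-Cre-selective region, while Cacna1e, Cacng3 and Scn3b have only Tie2-Cre-selective ones.

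By subunit, the pore genes of calcium channels had 2 Tie2-Cre-selective, 28 Tnnt2-Cre-selective and 11 shared regions, summed over genes. Cacna1c alone had 0, 12 and 5, with peaks at 12 of its regions in the Tie2-Cre libraries and at 41 in the Tnnt2-Cre libraries, summed over 3 libraries each. Cacna1d had 0, 5 and 3, and Cacna1h had 0, 3 and 0. Cacna1e, which was higher in EC, had 2, 0 and 0. Among beta genes, Cacnb2 had 0, 5 and 1 and Cacnb4 had 3, 2 and 1, the only member with 3 Tie2-Cre-selective regions. The alpha2-delta genes had 5, 14 and 3 in all. Hcn2 had 2 Tnnt2-Cre-selective regions and Hcn4 had 1, and neither had a Tie2-Cre-selective region. Scn2a1, Scn3a, Scn9a, Scn2b, Scn4b and Cacng4 had no GATA4 region at all.

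Set beside RNA, 13 of the 17 members that were lower in EC had a Tnnt2-Cre-selective region, with 44 such regions counted over genes, and 4 had a Tie2-Cre-selective one. Of the 7 members higher in EC, 1 had a Tnnt2-Cre-selective region and 2 a Tie2-Cre-selective region. Over all genes, 35.1% had a Tnnt2-Cre-selective and 24.7% a Tie2-Cre-selective region, in shorter windows (median 100 kb, against 146 kb for members). The shares among all genes lower or higher in EC are not given here, so the split cannot be read as particular to channel genes. The lower members include most of the long genes, and the relation was not tested. Summed over 3 libraries each, 8 members had fewer and 26 had more regions with a peak in Tnnt2-Cre than in Tie2-Cre libraries, and 4 had as many in both. The Tnnt2-Cre list was the longer at each replicate number, so these sums also reflect list length. The same balance over all genes is not given here.

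Within 1 kb of a start, 4 members had a Tnnt2-Cre-selective region (Cacna1d, Cacna2d1, Cacna2d3 and Scn7a), 2 had a shared region (Cacna1c and Cacng2) and none had a Tie2-Cre-selective region. These are 9.09%, 4.55% and 0% of members, against 3.14%, 8.35% and 1.42% of all genes. The Cacna1c region, chr6:119196431-119197123, covers 229 of the 250 bases printed for its outermost start, including the GATA word. It had a fold over background, as the authors' peak lists give it, of 5.30 and 6.29 in 2 Tie2-Cre libraries and of 6.62, 4.66 and 7.42 in the 3 Tnnt2-Cre libraries. The Scn7a region, chr2:66784726-66785153, covers 243 of the 250 printed bases and was in 2 Tnnt2-Cre libraries at 4.97-fold and 5.98-fold. The Cacna1d region, chr14:30491348-30491660, and the Cacna2d1 region, chr5:15934280-15934570, were in the same 2 Tnnt2-Cre libraries, replicates 1 and 3. Regions within 1 kb of the starts of Hcn3, Cacna1b, Cacna1h and Cacng3 met no class. An inner RefSeq window of Cacnb2 (chr2:14823842-14824141), not printed, had 258 of its 300 bases in a region that met no class.

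Most classed regions lay away from the starts. Of the 62 Tnnt2-Cre-selective regions, 39 were in introns, 3 overlapped an exon and 20 were outside the gene body, and the nearest gene start was that of a channel gene for 20. For the 14 Tie2-Cre-selective regions these numbers were 11, 0 and 3, and the nearest start was a channel gene's for 4. The Tie2-Cre-selective regions with the highest rank in their lists were in an intron of Cacng3 (chr7:122716107-122716794), at the Icam2 start 33144 bases upstream of Scn4a (chr11:106382534-106383308), and in an intron of Cacna1e (chr1:154674245-154674721). Each was in all 3 Tie2-Cre libraries, at 8.44-fold to 11.05-fold for Cacng3. The leading Tnnt2-Cre-selective regions lay upstream of Hcn2 near Bsg (chr10:79700704-79701055 and chr10:79709172-79709701) and in an intron of Cacna1s (chr1:136085891-136086326), each in 2 libraries. The leading shared regions were beside Cacnb1 in Arl5c (chr11:97994442-97995044), in Cacna1d at the Dcp1a start (chr14:30479292-30479707), and in an intron of Scn10a (chr9:119631926-119632643). For the regions at Icam2, Bsg, Arl5c and Dcp1a another gene's start was nearer than the channel gene's.

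The Scn10a region was the only shared region with a peak in all 6 GATA4 libraries, at 7.98-fold, 5.78-fold and 9.31-fold in Tie2-Cre and 8.54-fold, 7.70-fold and 10.96-fold in Tnnt2-Cre libraries. It lies 86389 bases into Scn10a and was open in Tie2-Cre EC, in ko EC and in het EC. Scn10a itself had 0.213 and 0.996 CPM in EC, against 0.583, 0.988 and 0.516 CPM in CM.

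**Figure D5:**
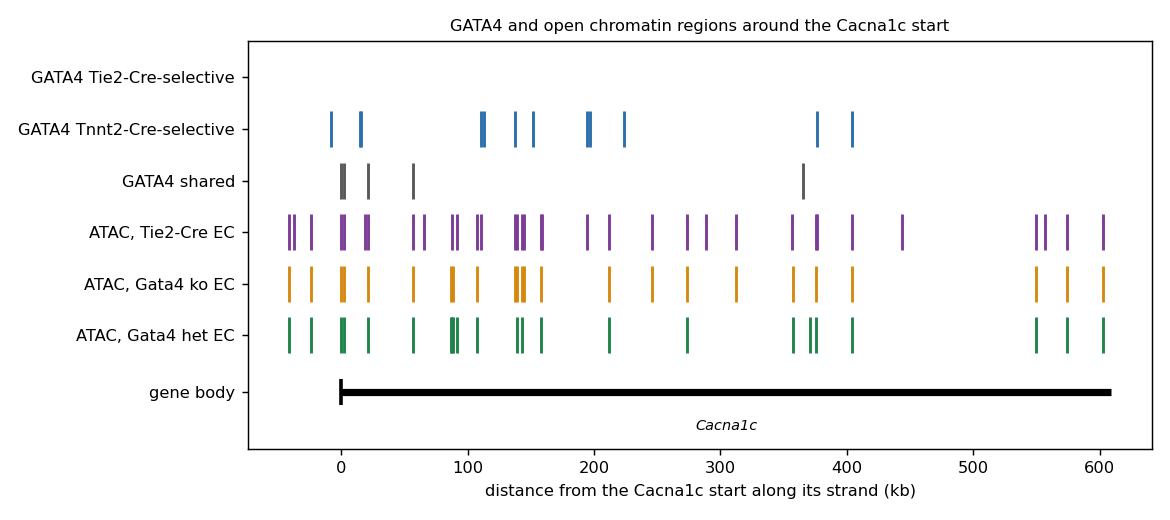
GATA4 regions by class and open chromatin regions in Tie2-Cre EC (both libraries), Gata4 ko EC and Gata4 het EC (at least 2 of 3 libraries) as ticks, against distance in kb from the start of Cacna1c. The locus has 12 Tnnt2-Cre-selective and 5 shared regions and no Tie2-Cre-selective region, and 1 shared region lies just before the start.

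In Tie2-Cre EC, 420 open regions (a peak in both libraries) lay at channel genes, or 48.6 per megabase, against 53.9 per megabase over all genes. Every member had at least 1, as had 90.9% of all genes, whose windows were shorter at the median. The start was open in 32 of 44 members (72.7%), against 66.3% of all genes. Among members that were lower in EC by RNA, 14 of 17 had an open start, among them Cacna1c, Hcn4 and Cacnb2, whose RNA was far lower than in CM. Of the 7 members higher in EC, 5 had an open start, and Cacng7 and Cacng8 did not. The RefSeq start of Cacng7 lies upstream of the start used here, at -3760 bases. By GATA4 class, 13 of 14 Tie2-Cre-selective regions (92.9%), 25 of 62 Tnnt2-Cre-selective regions (40.3%) and 22 of 24 shared regions (91.7%) were open in EC. The same shares over all genes were 90.9%, 45.5% and 95.5%.

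The ko and het ATAC lists were compared to ask how open chromatin at channel genes differed with Gata4 genotype in EC. Peaks at channel genes were 0.434%, 0.444% and 0.384% of the ko lists and 0.436%, 0.426% and 0.448% of the het lists. The groups overlapped, and the difference of -0.0159 percentage points gave p = 0.6 in the same exact permutation test, whose smallest possible value is 0.1. Without ko replicate 4, which had the shortest list (55733 peaks), the difference was 0.00247. Of 570 regions at members, 7 (1.23%) were ko-selective, 13 (2.28%) het-selective and 254 (44.6%) shared, against 1.72%, 3.05% and 45.5% of all 128146 regions. Leaving out 1 library, so that 1 of the 2 others suffices in its group, gives 12 to 80 ko-selective regions (80 without ko replicate 4) and 14 to 105 het-selective regions (105 without het replicate 3). Each of the 6 libraries moves the ko-selective count by over 1.5 times, and each but ko replicate 4 the het-selective count.

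Some het-selective regions had a peak in all 3 het libraries and in 0 ko libraries. One of these lay at a RefSeq start in Cacna1c (chr6:119108127-119108628), over the inner start whose G and C rich sequence is printed above. Another lay at an outer start of Scn2a1 (chr2:65620535-65620875), a gene that was low in EC RNA. The others lay away from member starts, in an intron of Cacna2d3 and upstream of Cacnb3 and of Cacna2d2. The outermost Cacna1c start was open in both genotypes. Around the inner start, regions at 86.892 to 87.424 kb and 88.295 to 88.919 kb from the outermost start were also open in both. They flanked the het-selective Cacna1c region, at 87.781 to 88.282 kb. All of these lay within a single open region of Tie2-Cre EC, at 86.666 to 89.511 kb. A ko-selective region in 2 ko libraries covered the start of Cacna1i, which was also open in Tie2-Cre EC and had 0 counts in EC RNA. Starts were open in 26 members in ko and 28 in het, or 59.1% and 63.6%, against 60.8% and 61.3% of all genes. RNA levels were not compared between ko and het cells here.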

How the data were processed

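RNA values are read counts per gene deposited by the authors; per the file headers they were made with featureCounts counting forward-stranded reads on mm10 genes. MACS2 2.2.4, STAR 2.7.3a, featureCounts 1.6.3, Bowtie2 2.2.9, deepTools 3.3.1 and Bowtie 1.1.1 are named in the submitters' processing notes, without roles. The authors deposited a peak list for each library, which gives every peak a fold over background (a ratio) and its −log10 p and q; the labels name no control library. Fold and q only ranked or filtered peaks within a list, and a missing peak does not show unbound or closed chromatin.

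Counts were fitted over the whole table in R 4.3.3 by the quasi-likelihood test of edgeR 4.0.16, after TMM scaling and filterByExpr, with Benjamini-Hochberg adjustment at 0.05; DESeq2 1.42.0 was the other tool. CPM use TMM-scaled library sizes, and RPKM divide them by exon length. Standard errors are the log2 fold change over the root of F. Replicate pairs all differed by more than counting noise (chi-square over degrees of freedom, 7.84 to 33.9). Peaks (Python 3.11.15, pandas 2.3.3, numpy 2.4.6, scipy 1.17.1) were merged at 1 bp overlap and given to 24101 genes placed on mm10 by their outermost exons; figures used matplotlib 3.10.9. Both scripts were tested on simulated data. Coordinates count from 1.

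The members and lists were chosen with earlier results of these data known. Named were members reaching 1 CPM in both EC libraries or in all CM libraries, the HCN genes and the main cardiac pore genes; the 3 highest-ranked regions per class; regions within 1 kb of a start; and list genes with the smallest adjusted p each way. Cacng8, Scn3b, Cacna1s, Cacna2d3, the other low or untested members given with counts, Sox10 and the marker genes at 0 were named after their values were seen. Alternatives were other scalings, no filter, a 2-fold test, stricter peaks, equal list lengths, other windows, a replicate block, and leaving out each library. Some members are counted in totals but not reported individually here.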

Additional observations from a re-analysis of the deposited data

How the results depend on the processing

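Across scalings, DESeq2, no count filter, the 2-fold test, the replicate block and each RNA library left out, 6 to 9 members were higher and 12 to 18 lower in EC. The median of all genes was -0.06, -0.12 with DESeq2 and -0.23 without the filter, on the log2 scale. Under the 2-fold test Cacnb1, Cacnb3, Cacnb4, Cacna1d and Cacna1s were among the members no longer called. Uncalled genes changed sign: Cacna1g to -0.58 without EC replicate 1, -0.03 (-0.0274) without CM replicate 1 and -0.17 without CM replicate 2, Scn2a1 to 0.31 and Scn2b to 0.01 (0.00929) without EC replicate 1, and Hcn3 to -1.05 without EC replicate 2 and -0.09 without CM replicate 1. Leaving out 1 library in turn, these genes ranged from -0.58 to 0.47 (Cacna1g), -0.85 to 0.31 (Scn2a1), -0.50 to 0.01 (Scn2b) and -1.05 to 0.80 (Hcn3). With the replicate number as a block, 7 members were higher and 15 lower. The replicate block gave an exact sign-flip p = 0.25 for the GATA4 shares (smallest possible 0.25) and p = 0.75 for ATAC. Same-numbered libraries correlated at -0.00515 and 0.00015 (RNA), 0.0332, -0.269 and -0.194 (GATA4) and 0.0425, 0.0342 and 0.115 (ATAC). In ATAC each ko library correlated most with the het library of its own number, and in GATA4 only replicate 1 did. With 2 EC libraries the RNA values mirror each other. These correlations therefore cannot settle whether the numbers pair the samples.

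Tie2-Cre-selective, Tnnt2-Cre-selective and shared GATA4 regions at members numbered 7, 13 and 2 with equal list lengths, and 5, 8 and 1 if 3 of 3 libraries were required. Shared regions were 15 within 20 kb, Tie2-Cre-selective ones 22 within 100 kb, and without the gene body there were 5 and 31 selective regions and 278 EC-open regions. Leaving out 1 library, which lowers the number of libraries needed, gave 14 to 47, 62 to 111 and 26 to 38. Peaks with −log10 q of at least 5 left 145 ATAC regions shared by ko and het. Requiring 3 of 3 libraries left 0 ko-selective, 6 het-selective and 162 shared ATAC regions. Leaving out 1 library gave 12 to 80, 14 to 105 and 269 to 288, and the ko minus het share ran between -0.0276 and 0.00247 percentage points. The Tie2-Cre minus Tnnt2-Cre share stayed negative under every alternative run, between -0.219 (equal list lengths) and -0.089 (without the gene body). The causes were not tested. Short second GATA4 lists, 2 EC RNA libraries and low counts limit what could be resolved.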
